A study of Mus musculus with 32 samples.

Results

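The step from 48 to 60 h of the 2i course was followed in mouse embryonic stem cells that were leaving naive pluripotency. It was read as the libraries taken 60 h after withdrawal of 2i against those taken 48 h after withdrawal, 4 libraries of 32 in the series, which were chosen by their labels and not by any measured value. All of the cells are of E14, an established line derived from a blastocyst. Both groups had been kept in N2B27 with 2i, plated as single cells and moved to N2B27 alone the next day, so neither group held an inhibitor when it was collected. The 2i medium holds 3 uM CHIR99021, which inhibits the kinase GSK3 and so keeps beta-catenin active, and 1 uM PD0325901, which inhibits the kinase MEK. The 2iL course, with 2 libraries at 60 h and 2 at 48 h after withdrawal of 2i and the cytokine LIF together, was set against it. The remaining libraries cover the other times of both courses.

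Naive pluripotency is the state of the epiblast before implantation, held in culture by 2i and LIF. After withdrawal, cells pass through a formative state, marked by Otx2, Pou3f1 and Fgf5 and by de novo DNA methyltransferases, before they take up primitive streak or neural programmes. Wnt signals, which act through beta-catenin and the TCF and LEF factors, are known to induce the streak and posterior epiblast, while neural fate is reached when Nodal and BMP signals are low.

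The libraries are 3' tag counts, with 2123458 and 1897381 counts in genes at 60 h and 1402548 and 2204675 counts at 48 h. At these totals 3 counts, the floor used below, correspond to 1.36 to 2.14 CPM, that is counts scaled to library size. The labels do not state whether replicates were separate cultures, and p-values here therefore cover no more than the spread between libraries. More of the uniquely aligned reads lay outside genes at 60 h (44.4% and 44.5%) than at 48 h (35.2% and 37.7%). This share moved with the step without overlap, and its part in the results was not tested. Levels below are CPM with TMM scaling, values after ± are standard errors of log2 fold changes (60 h minus 48 h, n = 2 libraries each), and intervals cover counting error only. In bulk RNA, fewer cells of a type and less RNA per cell cannot be told apart.

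Across 11761 tested genes, 103 (0.876%) changed at an adjusted p under 0.05 in edgeR's quasi-likelihood test. Of these, 59 (0.502% of the tested genes) were higher at 60 h and 44 (0.374%) were lower, and in all 103 the 2 libraries of 60 h lay on 1 side of the 2 libraries of 48 h. Genes that pass such a test are almost bound to be separated in this way. The share of all tested genes without overlap was not counted, so separation named below describes levels and adds no support. The median log2 fold change of all tested genes was -0.00018. The direction of each of the 103 genes was the same in the 4 fits that left out 1 of these libraries. Groups that do not overlap almost fix this outcome, so it adds no support. Far fewer genes passed the threshold in these fits. There were 27 without 60 h replicate 1, 41 without 60 h replicate 2, 40 without 48 h replicate 1 and 24 without 48 h replicate 2. In such a fit the single library of a group is assumed to vary as the other groups do. Passing in every one of these 4 fits were 12 genes, namely Efnb1, Hes3, Sox1, Chd3, Nkx1-2, Meis2, Ccnd2 and Ptn among the rises and Utf1, Platr10, Cgnl1 and Otx2 among the falls. Leaving out 4 libraries of other groups that stand apart from their replicates (in the 2iL course the first of 48 h, the second of 84 h and the first of 96 h, and in the 2i course the second of 12 h) gave 437 genes, with all 103 among them. DESeq2, used as a second tool, called 34 genes, of which 32 are among the 103. Those 32 include Otx2, Pou3f1, Utf1, Dnmt3b, Nanog, Sox1, Meis2, Nkx1-2 and Ccnd2 and do not include T, Wnt3 or Sp5.

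**Figure D1:**
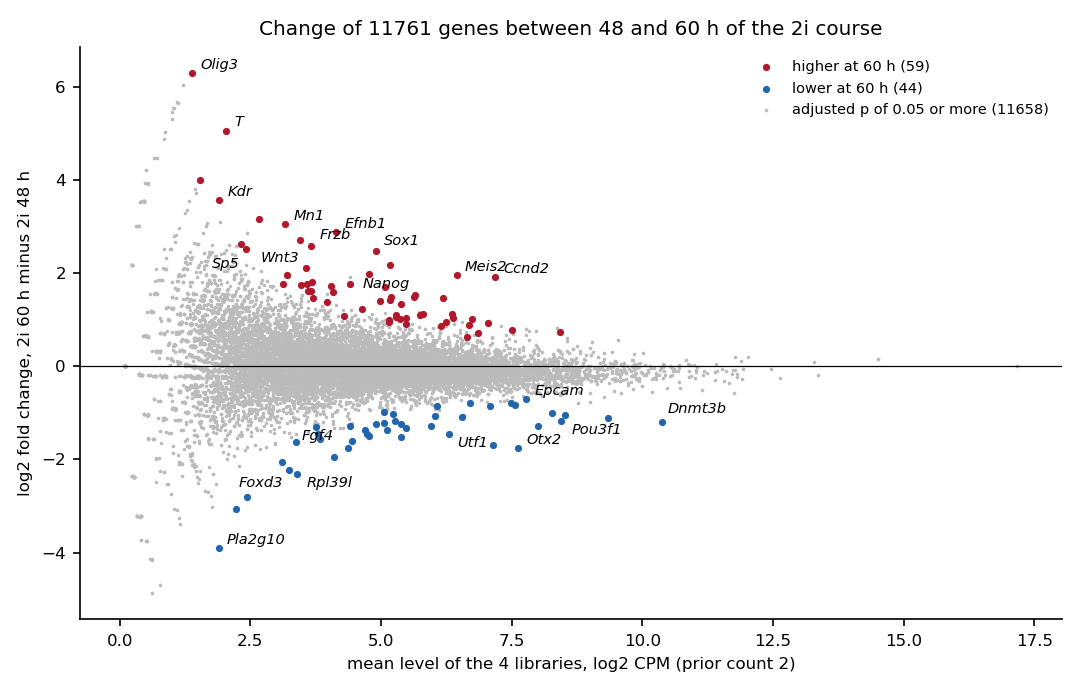
Change between 48 and 60 h of the 2i course for 11761 genes. The x axis is the mean level of the 4 libraries in log2 CPM and the y axis the log2 fold change of 60 h minus 48 h. The 59 genes higher at 60 h are in red, the 44 lower ones in blue and the rest in grey. Low genes with large fitted changes, such as Olig3 and T, sit at the left, and Ccnd2, Meis2, Otx2 and Dnmt3b are changed at high levels.

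Of 16 formative genes, all of them tested, 8 fell at 60 h, 0 rose and 8 did not pass. All 16 had a log2 fold change below 0 (median -0.87). Of all tested genes 0.374% fell, and 49.7% had a log2 fold change above 0. The lists here and below were chosen with earlier results of these data known. Counts by list therefore describe the members and add no independent support. Otx2 (ENSMUSG00000021848, chromosome 14, 48657677 to 48673819), the homeobox factor that drives entry into the formative state, stood at 106.5 and 105.9 CPM at 60 h, against 341 and 377 CPM at 48 h (log2 fold change -1.76 ± 0.19, adjusted p = 4.3e-07). Pou3f1 (ENSMUSG00000090125, chromosome 4, 124656807 to 124660655), a POU factor that acts with it, had 280.9 and 231 CPM at 60 h and 530.2 and 534 CPM at 48 h (-1.05 ± 0.18, adjusted p = 0.0012). For both, either library of 60 h was well under either library of 48 h. Utf1, a chromatin-bound factor of pluripotent cells, was at 41.7 and 52.2 CPM at 60 h, against 143 and 115 CPM at 48 h (-1.46 ± 0.21, adjusted p = 5.7e-05). Fgf5, the classical ligand marker of the postimplantation epiblast, had 23.5 and 18.9 CPM at 60 h, against 47.3 and 51.3 CPM at 48 h (-1.21 ± 0.28, adjusted p = 0.019). Foxd3, a forkhead factor of pluripotent cells, was at 2.22 and 5.63 CPM at 60 h and 16 and 20.1 CPM at 48 h (-2.23 ± 0.50, adjusted p = 0.016). These groups too did not overlap. Etv5, an ETS factor downstream of ERK, had 68.8 and 88.0 CPM at 60 h, against 128 and 143 CPM at 48 h (-0.80 ± 0.20, adjusted p = 0.048).

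The number of formative genes that fell was 3 without 60 h replicate 1 and 4 without each of the other 3 libraries, and 12 without the 4 libraries that stand apart. DESeq2 called 4 of them lower. Otx2 and Utf1 passed without any single library. Pou3f1 did not pass without 60 h replicate 2 (adjusted p = 0.0934). Foxd3 did not pass without 60 h replicate 1, 48 h replicate 1 or 48 h replicate 2 (adjusted p = 0.384, 0.0542 and 0.299 in that order), and its log2 fold change was -1.68 without 60 h replicate 1 and -2.99 without 60 h replicate 2. Fgf5 passed in none of the 4 fits (adjusted p 0.097 to 0.275), and neither did Etv5 (adjusted p 0.118 to 0.559).

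Dnmt3b and Dnmt3l, genes of de novo DNA methylation, fell as well. Dnmt3b (ENSMUSG00000027478, chromosome 2, 153649450 to 153687730), the main de novo DNA methyltransferase of the formative epiblast, was at 855 and 903 CPM at 60 h, against 1864 and 2136 CPM at 48 h (-1.19 ± 0.20, adjusted p = 0.00064). Dnmt3l, its catalytically inactive partner, had 25.3 and 24.6 CPM at 60 h and 71.4 and 43.1 CPM at 48 h (-1.17 ± 0.28, adjusted p = 0.032). Both 48 h libraries exceeded both 60 h libraries for these genes. Of 9 writers and erasers of DNA methylation tested, these 2 fell, 0 rose and 7 did not pass (median -0.41). Dnmt3b missed the threshold without 60 h replicate 1 (adjusted p = 0.0618) and without 48 h replicate 2 (adjusted p = 0.054). Dnmt3l did so without 60 h replicate 1 (0.309), 60 h replicate 2 (0.239) and 48 h replicate 1 (0.555), which took the number of falling members to 0 without 60 h replicate 1 and to 1 without each of the others.

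**Figure D2:**
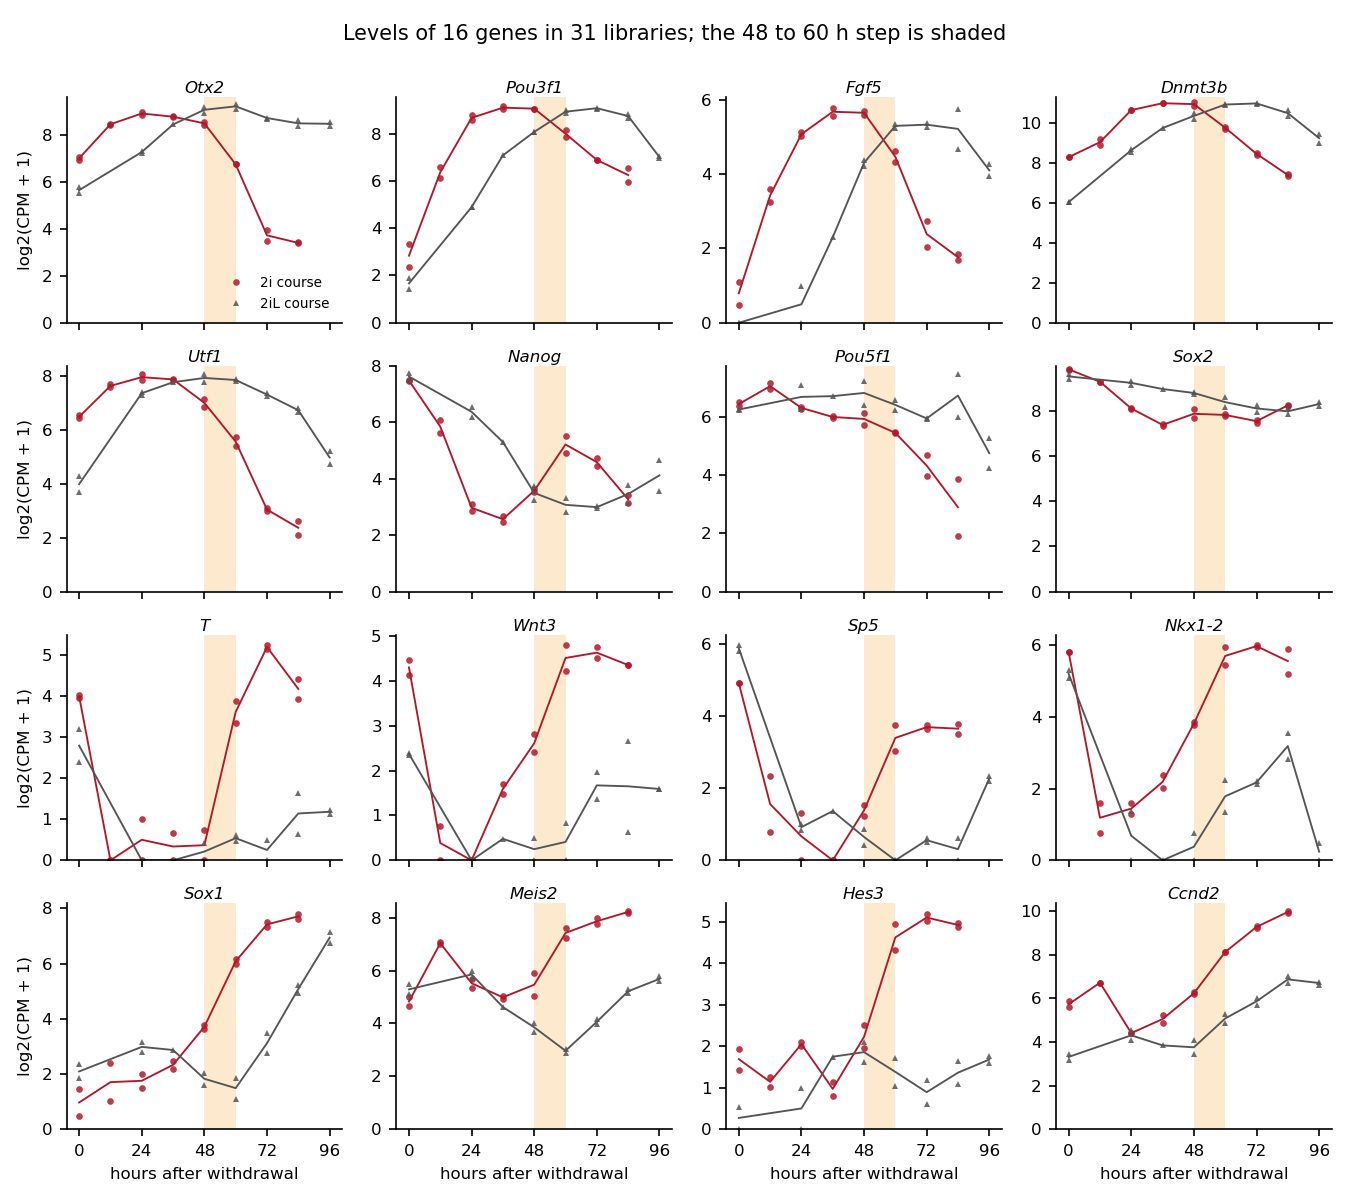
Levels of 16 genes over both courses, as log2(CPM + 1) against hours after withdrawal. Red points and lines are libraries and group means of the 2i course, grey triangles and lines those of the 2iL course, and the shaded band marks 48 to 60 h, with the shallow library 2iL 36 h replicate 2 left out. In the 2i course Otx2, Pou3f1, Fgf5, Dnmt3b and Utf1 come down across the band while Nanog, T, Wnt3, Sp5, Nkx1-2, Sox1, Meis2, Hes3 and Ccnd2 go up.

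Of 22 naive genes tested, 2 were higher and 3 lower at 60 h (median -0.02), and 17 did not pass. Nanog (ENSMUSG00000012396, chromosome 6, 122707489 to 122714633), a homeobox factor of naive cells and of the posterior epiblast, had 44.8 and 29.2 CPM at 60 h, against 11.3 and 10.5 CPM at 48 h (1.77 ± 0.31, adjusted p = 0.0013). Both 60 h libraries were above both 48 h libraries. They remained far under the 179 and 177 CPM of the libraries taken in 2i, before withdrawal. Gbx2, a homeobox factor that LIF signalling induces in stem cells, had 53.7 and 46.1 CPM at 60 h and 24.0 and 14.4 CPM at 48 h (1.41 ± 0.30, adjusted p = 0.011). In 2i before withdrawal Gbx2 was at 4.47 and 2.27 CPM, so that for Gbx2 the 60 h level was above the starting level.

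Lower at 60 h were Fgf4, the FGF ligand made by naive and formative cells, and the paired chromatin factors Dppa2 and Dppa4. Fgf4 had 12.4 and 8.70 CPM at 60 h, against 32 and 39.8 CPM at 48 h (-1.76 ± 0.32, adjusted p = 0.0019). Dppa2 was at 13.8 and 9.72 CPM at 60 h and 38.7 and 34 CPM at 48 h (-1.61 ± 0.29, adjusted p = 0.0019), and Dppa4 at 154 and 177 CPM at 60 h and 381 and 419 CPM at 48 h (-1.27 ± 0.22, adjusted p = 0.0011). Again no library of 60 h reached one of 48 h. Without 60 h replicate 1 the naive list held 0 rises and 2 falls, without 60 h replicate 2 it held 2 rises and 1 fall, and without 48 h replicate 2 it held 0 rises and 1 fall. Nanog did not pass without 60 h replicate 1 (adjusted p = 0.134) or without 48 h replicate 2 (adjusted p = 0.0971), and Gbx2 did not without the same libraries (0.187 and 0.44). Fgf4 was lost without 60 h replicate 2 (0.0922) and 48 h replicate 2 (0.108), Dppa2 without 60 h replicate 2 (0.0998), and Dppa4 without 60 h replicate 1 (0.102) and 48 h replicate 2 (0.054).

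Of 12 general pluripotency factors, 1 rose, 1 fell and 10 did not pass (median -0.19). Pou5f1, the core POU factor also called Oct4, stood at 42.2 and 43.0 CPM at 60 h, against 52.0 and 68.5 CPM at 48 h (-0.51 ± 0.37, adjusted p = 0.69). Sox2, its partner and a neural factor as well, had 221 and 231 CPM at 60 h and 203 and 269.7 CPM at 48 h (-0.07 ± 0.19, adjusted p = 0.95). The 60 h libraries were below those of 48 h for Pou5f1 and lay between them for Sox2. The gene that fell was Gdf3, a Nodal-related ligand, with 22.6 and 23 CPM at 60 h and 46.0 and 44.1 CPM at 48 h (-0.98 ± 0.24, adjusted p = 0.038). Its groups did not overlap, but it passed in no fit that left out 1 of the 4 libraries (adjusted p 0.228 to 0.346), and in each of these fits 0 genes of the list rose and 0 fell, as by DESeq2.

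The 15 largest falls at a mean log2 CPM of at least 3 held further genes outside these lists. Platr10 and Lncenc1, long noncoding RNAs of naive stem cells, were at 22.2 and 26.1 CPM and at 15.1 and 15.4 CPM at 60 h, against 61.4 and 76.6 CPM and 51.3 and 34 CPM at 48 h (-1.52 ± 0.22 and -1.46 ± 0.30). Tex19.1, which restrains transposons in germ and stem cells, had 16 and 14.8 CPM at 60 h, against 42.7 and 44.5 CPM at 48 h (adjusted p = 0.0058), and Cgnl1, a tight junction protein, fell by 1.69 (SE 0.23, adjusted p = 3.3e-05). The junction scaffold had 66.1 and 92.6 CPM at 60 h, against 210.1 and 300.8 CPM at 48 h, so the groups stood well apart. Tnnt1, a troponin subunit (-2.05 ± 0.47), Pml, the organiser of nuclear bodies (-1.57 ± 0.31), Dlc1, a regulator of the cytoskeleton (-1.45 ± 0.32), and the noncoding Gm12688 (-1.62 ± 0.39) also fell. Rpl39l (-2.32 ± 0.38) and Rpl10l (-1.95 ± 0.46) are copies of ribosomal protein genes, and how reads were shared with their parent genes is not known. Platr10 and Cgnl1 passed without any single library. Lncenc1 passed only without 48 h replicate 2 (adjusted p 0.103 to 0.229 in the other 3 fits) and Tex19.1 only without 48 h replicate 1 (0.105 to 0.12). Rpl39l missed the threshold without 60 h replicate 1 (0.0512) and without 48 h replicate 1 (0.0516). Pml did so without 60 h replicate 2 (0.152) and 48 h replicate 2 (0.384), and Dlc1 without 60 h replicate 1 (0.466), 48 h replicate 1 (0.0578) and 48 h replicate 2 (0.38). Tnnt1 (0.0822 to 0.37), Rpl10l (0.0922 to 0.384) and Gm12688 (0.171 to 0.306) passed in none of the 4.

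T and Wnt3, 2 genes of the primitive streak, were higher at 60 h, at low levels. Of 12 streak genes 9 were tested, 2 rose, 0 fell and 7 did not pass (median 1.24). T (ENSMUSG00000062327, chromosome 17, 8434423 to 8442496), the T-box factor Brachyury and the classical mark of the streak, had 13.8 and 9.21 CPM at 60 h, against 0.667 and 0 CPM at 48 h. That is 49 counts at 60 h against 1 count at 48 h, a ratio of 41.8 (95% exact interval 7.155 to 1683; adjusted p = 0.00092). Wnt3 (ENSMUSG00000000125, chromosome 11, 103774150 to 103817957), the Wnt ligand needed to start the streak, had 17.8 and 26.6 CPM at 60 h and 6.0 and 4.31 CPM at 48 h (2.11 ± 0.45, adjusted p = 0.012). For both genes the 60 h libraries were the higher ones. Both had been present in 2i before withdrawal, with 14.6 and 15.3 CPM of T and 21.1 and 16.5 CPM of Wnt3. In 2iL before withdrawal, with the same amount of CHIR99021, the group means were 6.21 CPM of T and 4.17 CPM of Wnt3. The part of CHIR99021 in these levels was not tested. The fitted log2 fold change of T, 5.07, rests on 1 count at 48 h, and it was 7.44 without 48 h replicate 1 and 3.99 without 48 h replicate 2. T did not pass without 48 h replicate 2 (adjusted p = 0.108), and Wnt3 did not without 60 h replicate 2 (0.185), 48 h replicate 1 (0.084) or 48 h replicate 2 (0.356). The number of rising streak genes was thus 1 without 60 h replicate 2 or 48 h replicate 1 and 0 without 48 h replicate 2. DESeq2 called 0 of them.

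Of 16 targets of beta-catenin and TCF 13 were tested, and 3 of them rose, 0 fell and 10 did not pass (median 1.16). Besides T these were Sp5, a zinc finger factor that Wnt induces directly, and Tnfrsf19, a Wnt-induced receptor of the TNF family. Sp5 (ENSMUSG00000075304, chromosome 2, 70474923 to 70477729) was at 12.4 and 7.16 CPM at 60 h, against 1.33 and 1.92 CPM at 48 h (2.52 ± 0.61, adjusted p = 0.034), with 28.8 and 29 CPM in 2i before withdrawal. Tnfrsf19 had 52.8 and 61.4 CPM at 60 h and 26.7 and 29.7 CPM at 48 h (1.01 ± 0.23, adjusted p = 0.019). The groups did not overlap. Axin2, the feedback inhibitor used as a general Wnt readout, had 18.6 and 15.4 CPM at 60 h, against 13.3 and 4.31 CPM at 48 h (1.03 ± 0.44), which did not pass (adjusted p = 0.35). Sp5 did not pass without 60 h replicate 1 (0.416), 48 h replicate 1 (0.245) or 48 h replicate 2 (0.337), and Tnfrsf19 passed in none of the 4 fits (0.102 to 0.235). The count of 3 was 1 without 60 h replicate 1, 2 without 60 h replicate 2, 1 without 48 h replicate 1 and 0 without 48 h replicate 2, and DESeq2 called 0.

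To show what lies before the starts of the called target genes, the 250 bases upstream of the RefSeq start of T and of Sp5 were read from RefSeq on GRCm38.p6, the assembly that mm10 names. Capitals mark matches to the TCF and LEF core, searched on both strands as the words CTTTGAA or else CTTTGAT, and likewise the words CTTTGTA or else CTTTGTT. The last 2 of these words also hold CTTTGT, the core of the motif of Sox factors. The windows are chr17:8434173-8434422 and chr2:70474673-70474922, both on the plus strand.
T: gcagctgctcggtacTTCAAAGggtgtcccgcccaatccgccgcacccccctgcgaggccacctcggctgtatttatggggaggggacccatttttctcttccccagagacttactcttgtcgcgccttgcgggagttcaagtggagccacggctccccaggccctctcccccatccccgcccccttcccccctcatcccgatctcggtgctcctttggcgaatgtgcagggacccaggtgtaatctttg
Sp5: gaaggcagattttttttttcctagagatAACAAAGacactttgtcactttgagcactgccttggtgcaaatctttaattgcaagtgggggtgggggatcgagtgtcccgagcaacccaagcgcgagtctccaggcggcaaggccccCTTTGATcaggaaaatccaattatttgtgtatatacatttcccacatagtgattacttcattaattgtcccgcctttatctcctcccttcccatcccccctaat
The T window held 1 match, which begins 235 bases before the start, and the Sp5 window held 2, beginning 222 and 104 bases before it. Of the 10 listed Wnt targets with a window, 5 (50%) held a match in at least 1 window, namely T, Sp5, Tnfrsf19, Lef1 and Dkk1, and Axin2, Tcf7, Nkd1, Rnf43 and Cdx2 held none. A match was present in 16.8% of the 27025 genes of the table and in 14.8% of its 32851 windows. Among the genes that rose, 7 of 41 with a window held one (17.1%), and among those that fell, 3 of 34 (8.82%). A match is a description of these letters and not a measured site.

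Of 25 ligands, receptors and antagonists of the Wnt pathway 16 were tested, 3 rose, 0 fell and 13 did not pass (median 0.39). Besides Wnt3 these were the receptor Fzd10, with 17.3 and 15.4 CPM at 60 h, against 2.67 and 5.27 CPM at 48 h (1.96 ± 0.40, adjusted p = 0.0074), and Frzb, a secreted Wnt antagonist. Frzb had 28.8 and 26.1 CPM at 60 h and 6.0 and 3.35 CPM at 48 h (2.59 ± 0.43, adjusted p = 0.00083). Neither gene had overlapping groups. Before withdrawal Fzd10 was at 37.4 and 44.3 CPM and Frzb at 0 and 0.568 CPM, so these 2 members differed in where they had started. Frzb was lost without 48 h replicate 2 (adjusted p = 0.108), and Fzd10 without 60 h replicate 1 (0.12), 48 h replicate 1 (0.173) and 48 h replicate 2 (0.0545). The log2 fold change of Fzd10 was 2.595 without 48 h replicate 2 and 1.63 without 48 h replicate 1. With Wnt3, the count was 2 without either 60 h library, 1 without 48 h replicate 1 and 0 without 48 h replicate 2, and DESeq2 called 1.

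Of 13 caudal epiblast genes 7 were tested, and all 7 had a log2 fold change above 0 (median 1.99), but 1 passed. That gene was Nkx1-2 (ENSMUSG00000048528, chromosome 7, 132594878 to 132599637), a homeobox factor of the posterior epiblast and its neuromesodermal progenitors. It had 61.2 and 42.5 CPM at 60 h, against 12.7 and 13.4 CPM at 48 h (1.99 ± 0.32, adjusted p = 0.00039), and passed without any single library. The 60 h libraries stood close to the 54.8 and 55.1 CPM of 2i before withdrawal. Of 27 Hox genes, the position code of the trunk, 11 were tested and 0 passed in edgeR or in DESeq2 (median 0.98, 2 higher at an unadjusted p under 0.05). Summed over the list they gave 28.7 and 23.7 CPM at 60 h and 16.4 and 10.9 CPM at 48 h, as CPM of total counts without TMM scaling.

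Sox1 and Ptn rose among the neural progenitor genes. Of 18 members, all tested, 2 rose, 0 fell and 16 did not pass (median 0.58). Over the same hours of the 2iL course the median of this list was 0.61. Sox1 (ENSMUSG00000096014, chromosome 8, 12395295 to 12400126), the earliest specific factor of the neural plate, had 71.4 and 62.4 CPM at 60 h, against 12.7 and 11.5 CPM at 48 h (2.47 ± 0.28, adjusted p = 8.4e-07). Ptn, a secreted growth factor of neural progenitors, was at 130.5 and 107 CPM at 60 h and 44.7 and 42.2 CPM at 48 h (1.46 ± 0.22, adjusted p = 0.00017). Each 60 h library was above both of 48 h, and both genes passed without any single library. Sox11, a SoxC factor, had 959 and 833 CPM at 60 h and 605.5 and 605.0 CPM at 48 h (0.57 ± 0.16), which missed the threshold (adjusted p = 0.077). Sox11 passed in 6 alternative fits, among them the one without the shallow library, 2iL 36 h replicate 2 (adjusted p = 0.03). Pax6, a later neural factor, had 11.5 and 12.8 CPM at 60 h, against 9.34 and 11 CPM at 48 h (0.24 ± 0.42, adjusted p = 0.90). The count of rising progenitor genes was 6 without the 4 libraries that stand apart, 4 without the shallow library and 3 by DESeq2.

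Of 23 genes that pattern the neural tube 15 were tested, 2 rose and 0 fell (median 1.13, or 0.97 when 2 genes without counts in 1 group are set at their bounds). In the 2iL course the median of this list was 0. Meis2 (ENSMUSG00000027210, chromosome 2, 115863064 to 116065839), a TALE homeobox factor, had 195 and 149 CPM at 60 h, against 58.7 and 31.6 CPM at 48 h (1.96 ± 0.22, adjusted p = 8.4e-07), and passed without any single library. Olig3, a bHLH factor of the dorsal neural tube, had 5.33 and 5.12 CPM at 60 h, and 0 and 0 CPM at 48 h. Its 22 counts at 60 h against 0 make it at least 6.25-fold higher, with the floor of 3 counts taken over the group (adjusted p = 0.012). It passed in none of the fits that left out 1 of the 4 libraries (0.0727 to 0.33), which left 1 rising gene in this list in each. Without the 4 libraries that stand apart, 4 rose. Of 12 genes of neuronal differentiation 8 were tested, and 2 rose (median 0.09, and 0.25 in the 2iL course). Stmn2, a microtubule regulator of growing neurites, had 110.5 and 129 CPM at 60 h, against 52.7 and 57.0 CPM at 48 h (1.12 ± 0.28, adjusted p = 0.047). Gap43, a protein of growth cones, had 95 and 92.6 CPM at 60 h and 54.7 and 48.9 CPM at 48 h (0.86 ± 0.21, adjusted p = 0.035). The groups of both were apart, but neither passed in any of the 4 reduced fits (0.171 to 0.356 for Stmn2 and 0.151 to 0.44 for Gap43).

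**Figure D3:**
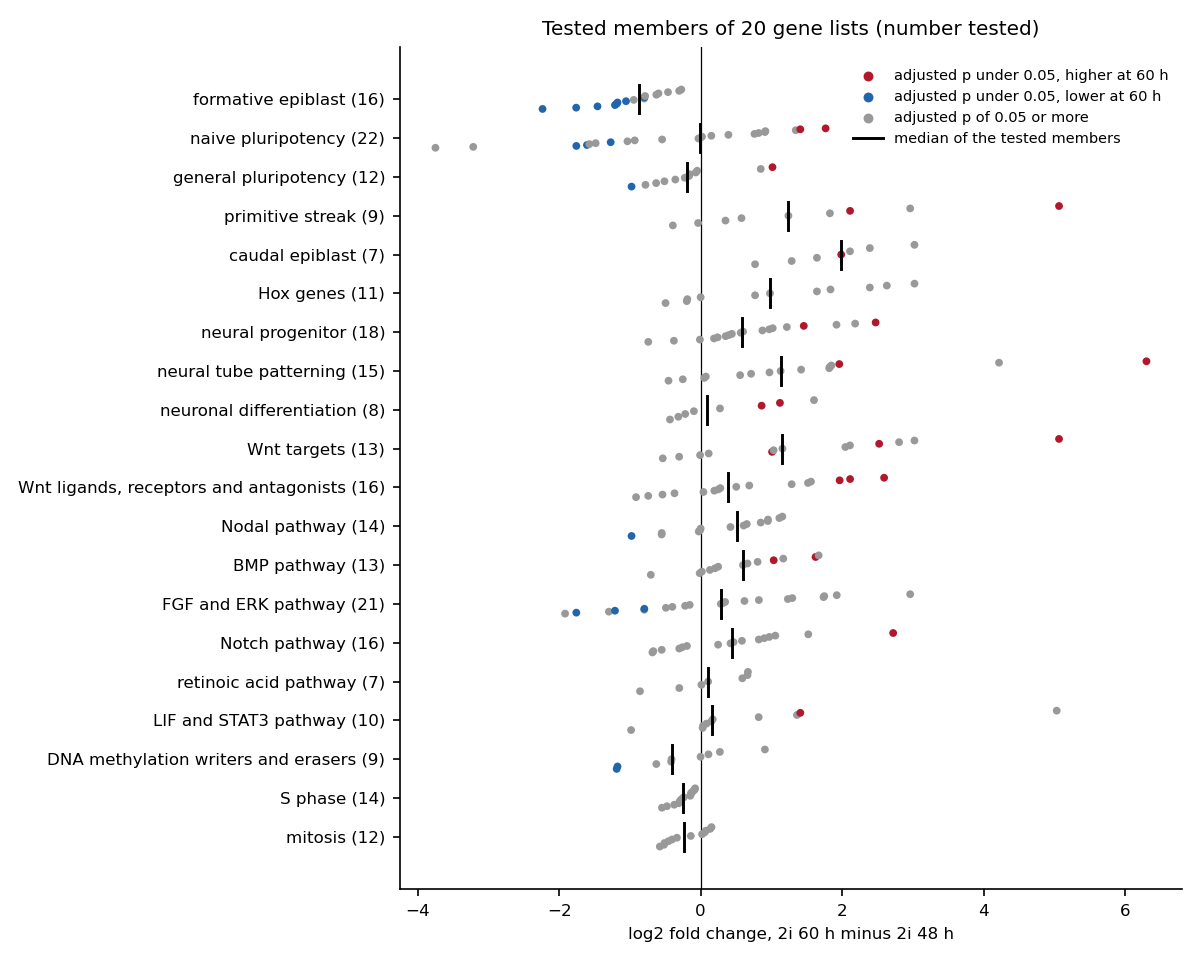
Log2 fold changes of 60 h minus 48 h for the tested members of 20 gene lists, with the number tested in brackets. Each point is a gene, red where it rose, blue where it fell and grey where it did not pass, and the black bar is the median of the tested members. All 16 formative genes lie left of 0 with 8 in blue. The streak, Wnt target and neural patterning lists have medians above 1 with 2 or 3 genes in red, and T is in both the streak and the Wnt target list. The neural patterning median is 0.97 when 2 genes without counts in 1 group are set at their bounds. The lists were chosen with earlier results of these data known.

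Few genes passed in the other signalling lists. An unadjusted p under 0.05 in edgeR was more frequent, with 7 of 14 tested Nodal genes (5 higher) and 6 of 13 BMP genes (6 higher). It was reached by 10 of 21 FGF and ERK genes (5 higher), 5 of 16 Notch genes (4 higher) and 5 of 10 LIF and STAT3 genes (4 higher). Over all 11761 tested genes 1285 reached it. In the Nodal list (16 genes, 14 tested, median 0.51) 0 rose and 1 fell, the ligand Gdf3 given above, and Lefty2, a feedback inhibitor of Nodal, had 11.1 and 6.14 CPM at 60 h, against 3.33 and 4.31 CPM at 48 h (1.15 ± 0.46, adjusted p = 0.30). Before withdrawal Lefty2 had 931 and 875 CPM. In the BMP list (18 genes, 13 tested, median 0.60) 2 rose and 0 fell. Id1, a BMP-induced inhibitor of bHLH factors, was at 22.2 and 18.9 CPM at 60 h and 5.33 and 7.66 CPM at 48 h (1.62 ± 0.37, adjusted p = 0.017). Fst, follistatin, a secreted antagonist of activin and BMP, had 111 and 123 CPM at 60 h, against 64.0 and 51.3 CPM at 48 h (1.03 ± 0.22, adjusted p = 0.012). The 60 h libraries were the higher ones for both, yet neither passed in any fit without 1 of the 4 libraries (0.066 to 0.24 for Id1 and 0.0587 to 0.384 for Fst). DESeq2 called 0 genes of the BMP list and 0 of the Nodal list.

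In the FGF and ERK list (22 genes, 21 tested, median 0.28) 0 rose and 3 fell, which were Fgf4, Fgf5 and Etv5. The count of 3 became 1 without 60 h replicate 1, 0 without 60 h replicate 2, 1 without 48 h replicate 1 and 0 without 48 h replicate 2, and it was 1 by DESeq2. Dusp6, the phosphatase that ERK induces against itself, had 58.6 and 78.3 CPM at 60 h, against 102 and 79.0 CPM at 48 h (-0.40 ± 0.42, adjusted p = 0.81). In the Notch list (18 genes, 16 tested, median 0.44, and 0.62 in the 2iL course) 1 gene rose and 0 fell. This was Hes3, a bHLH repressor of neural progenitors, with 29.7 and 18.9 CPM at 60 h, against 4.67 and 2.87 CPM at 48 h (2.72 ± 0.41, adjusted p = 0.00017), and it passed without any single library. Hes5, a direct Notch target, had 9.32 and 2.56 CPM at 60 h and 4.67 and 1.92 CPM at 48 h (0.97 ± 0.63, adjusted p = 0.64), with overlapping groups. At 72 h of the course Hes5 had 75.4 and 79.6 CPM, several times the level of any of the 4 libraries here. Of 13 retinoic acid genes 7 were tested and 0 passed in edgeR or DESeq2 (median 0.11, 2 at an unadjusted p under 0.05). Of 10 LIF and STAT3 genes Gbx2 rose and 0 fell (median 0.16), and Gbx2 did not pass without 60 h replicate 1 or without 48 h replicate 2, as given above.

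The 15 largest rises at a mean log2 CPM of at least 3 held further genes outside the lists or in others. Ccnd2 (ENSMUSG00000000184, chromosome 6, 127125162 to 127152193), a D-type cyclin that is prominent in neural and posterior progenitors, had 279.56 and 280.45 CPM at 60 h, against 76.7 and 72.3 CPM at 48 h (1.91 ± 0.19, adjusted p = 1.9e-07). Efnb1, a ligand of Eph receptors, was at 42.6 and 46.1 CPM at 60 h and 8.67 and 3.83 CPM at 48 h (2.89 ± 0.35, adjusted p = 4.2e-06). Chd3, a chromatin remodeller of the NuRD complex, had 76.3 and 73.2 CPM at 60 h and 22 and 12.0 CPM at 48 h (2.18 ± 0.27, adjusted p = 4.2e-06). In none of these did the groups overlap, and all of them passed without any single library. Mn1, a transcriptional coregulator, rose as well (3.05 ± 0.54), as did Ntn1, the axon guidance cue netrin (1.82 ± 0.38), Scrn1, secernin, a regulator of exocytosis (1.77 ± 0.44), and Onecut2, a homeobox factor (1.77 ± 0.42). Mn1 was lost without 48 h replicate 2 (adjusted p = 0.104), and Ntn1 without 60 h replicate 1 (0.254) and 48 h replicate 2 (0.422). Scrn1 (0.0705 to 0.431) and Onecut2 (0.0703 to 0.388) passed in none of the 4. The log2 fold change of Scrn1 was 2.89 without 48 h replicate 2 and 1.28 without 48 h replicate 1. That of Efnb1 was 2.35 without 48 h replicate 2 and 3.51 without 48 h replicate 1.

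Lists of the cell cycle, metabolism and adhesion showed few changes. Of 11 G1 genes 9 were tested, Ccnd2 rose and 0 fell (median 0.38). For 5 lists both edgeR and DESeq2 called 0 genes. The 14 S phase genes all had a log2 fold change below 0 (median -0.25, 2 at an unadjusted p under 0.05). Of 12 mitosis genes 1 was under an unadjusted p of 0.05 (median -0.24), of 13 p53 targets 2 (median 0.13), of 16 cholesterol synthesis genes 1 (median 0.05) and of 14 ATF4 response genes 4 (median 0.18). Without the 4 libraries that stand apart, 4 of the ATF4 genes rose. Glycolysis and hypoxia response held 1 rise of 18 (median -0.06), the glucose transporter Slc2a3, with 199.7 and 160.2 CPM at 60 h, against 103 and 87.2 CPM at 48 h (0.92 ± 0.21, adjusted p = 0.019). Of 21 genes of epithelial and mesenchymal adhesion 19 were tested and 1 fell (median -0.04), Epcam, an epithelial adhesion molecule, with 166 and 178 CPM at 60 h and 287 and 270.6 CPM at 48 h (-0.70 ± 0.16, adjusted p = 0.015). The groups of each did not overlap. Slc2a3 passed only without 60 h replicate 2 (0.112 to 0.428 in the other 3 fits), and Epcam in none (0.137 to 0.315). DESeq2 called 0 genes of these 2 lists.

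Few markers of other cell types changed. For primitive endoderm (10 genes, 3 tested, 0 called, median 0.39) Afp, Ttr and Sox7 were at 0 in all 4 libraries, and the summed level of the list was 480.4 and 512 CPM at 60 h, against 343 and 302 CPM at 48 h, again as CPM of total counts. Its sum moved with the step without overlap, and its part in the results was not tested. For definitive endoderm (8 genes, 5 tested, 0 called, median 0.01) Foxa1 and Cer1 were at 0, and the sums were 73.9 and 57.4 CPM at 60 h and 67.0 and 58.1 CPM at 48 h. Trophectoderm (8 genes, 5 tested, median 0.28), germline (9 genes, 6 tested, median -0.06), fibroblast (7 genes, 4 tested, median -0.47), 2-cell-like (8 genes, 1 tested, median -0.10) and neural crest and surface ectoderm (11 genes, 4 tested, median 0.13) had 0 called genes in edgeR and DESeq2, as did both endoderm lists. At an unadjusted p under 0.05 there was 1 primitive endoderm gene, 2 of trophectoderm, 1 of the germline and 0 in the other 4 of these 7 lists. Sums of the 5 lists just named lay between 10.5 and 158 CPM in each library, with Nanos3, Tcstv3 and Krt5 at 0. In the mesoderm and blood list (10 genes, 2 tested, median 1.73) Kdr rose, the VEGF receptor of early mesoderm, with 7.54 and 7.16 CPM at 60 h, against 0.667 and 0.479 CPM at 48 h. Its 31 counts at 60 h against 2 give a ratio of 13.2 (95% exact interval 3.36 to 114; adjusted p = 0.038), and it passed in none of the 4 reduced fits (0.155 to 0.489). The sums of that list were 33.9 and 20.6 CPM at 60 h and 20.7 and 22.2 CPM at 48 h, and Foxc2 was at 0. DESeq2 gave no adjusted p for Kdr.

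The 103 genes were then read in libraries that the comparison did not use. Between 36 and 72 h of the 2i course, 58 of the 59 genes that rose had a positive log2 fold change (median 2.93), and all 44 that fell had a negative one (median -3.50). Of all tested genes 5875 were positive and 5863 negative in that comparison (median 0). The exception was Dym, a Golgi protein gene, at -0.26, which was singled out after its value was seen. The highest group mean of the course was at 72 h for 19 of the rising genes, at 84 h for 23 and at 60 h for 6. For 10 of them it was at 0 h, that is in 2i. The lowest mean was at 12 h for 11 of them, at 24 h for 20 and at 36 h for 18. Both 0 h libraries were above both 60 h libraries for 14 of the 59, Nanog, Sp5, Fzd10 and Slc2a3 among them, and the 0 h mean exceeded the 48 h mean for 37. Ckb, Ap3b2 and Ebp, named here after their values were seen, were also among the 14. Of the 44 falling genes 19 had their highest mean at 24 h, 12 at 36 h and 2 at 48 h. Such positions over the 2i course were not counted for all tested genes, so they describe the called genes only.

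**Figure D4:**
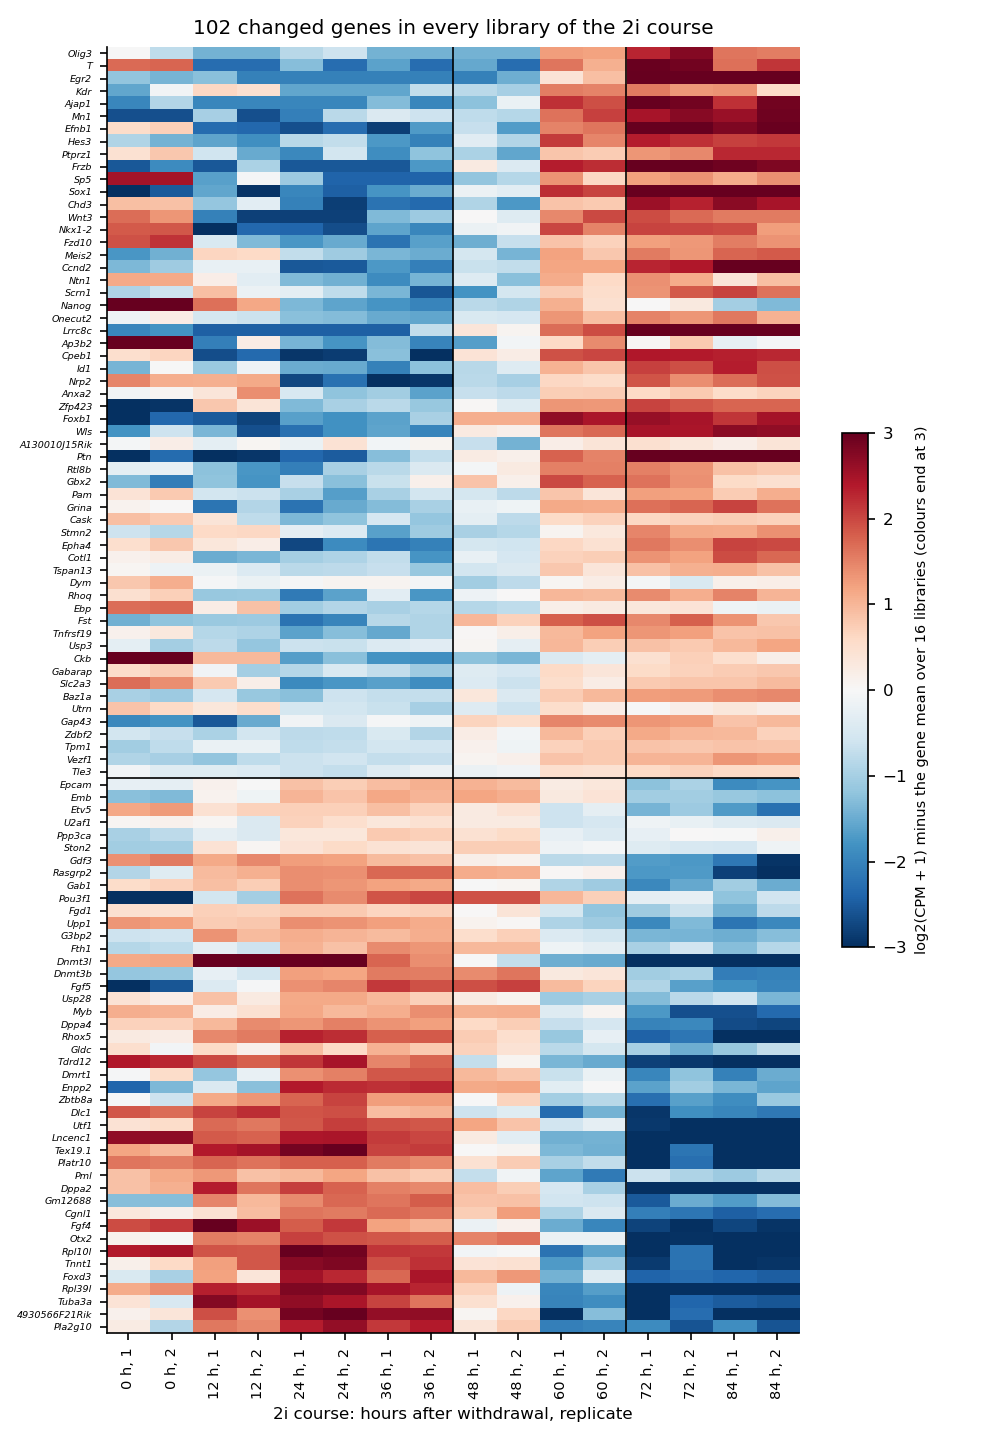
Levels of 102 of the changed genes in the 16 libraries of the 2i course, as log2(CPM + 1) minus the gene's mean over these libraries. Rows run from the largest rise at the top to the largest fall at the bottom, the horizontal line parts the rises from the 44 falls, columns are libraries in order of time, and the vertical lines enclose 48 and 60 h. Most rising genes are at their lowest between 12 and 36 h, and a subset is also high at 0 h. It holds Ap3b2, Ckb, Slc2a3 and Ebp as well as T, Sp5, Wnt3, Nkx1-2, Fzd10 and Nanog.

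Equal hours need not be equal stages of the courses, and stages were not matched here. Whether the change over these hours differed between courses was tested as the 48 to 60 h change in 2i minus that in 2iL. This difference passed for 68 of 11761 genes (0.578%), 34 positive and 34 negative, and it uses the same 4 libraries of the 2i course. With 1 library of the 2i course left out, the count was 27 (replicate 1 of 60 h), 42 (replicate 2 of 60 h), 46 (replicate 1 of 48 h) or 23 (replicate 2 of 48 h). With 1 library of the 2iL course left out, it was 25 (replicate 1 of 60 h), 52 (replicate 2 of 60 h), 43 (replicate 1 of 48 h, which stands apart from its pair) or 393 (replicate 2 of 48 h). DESeq2 called 25. Of the 16 formative genes 6 differed, all with a negative value. In the 2iL course Otx2 had 556 and 634 CPM at 60 h, against 582 and 495 CPM at 48 h (log2 fold change 0.14 ± 0.17), so that the difference was -1.90 ± 0.25 (adjusted p = 6.7e-05). Pou3f1 had 468 and 505 CPM at 60 h of 2iL and 268 and 269 CPM at 48 h (0.86 ± 0.18), with a difference of -1.91 ± 0.26 (adjusted p = 6.7e-05). Fgf5 differed by -2.24 ± 0.39 (adjusted p = 0.0024) and Dnmt3b by -1.75 ± 0.28 (adjusted p = 0.00081). At 96 h of 2iL, where replicate 1 stands apart from its pair, the group means of these genes were lower than at 60 h. They went from 595 to 355 CPM for Otx2 and from 486 to 128 CPM for Pou3f1. For Fgf5 they went from 38.4 to 16.3 CPM and for Dnmt3b from 1967.5 to 619 CPM. The 2iL libraries of 60 h were above those of 48 h for Pou3f1, and overlapped them for Otx2. All of these passed without any single library of the 8.

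Among the positive differences were those of Meis2, Sox1 and Nanog. The neural progenitor list held 1 positive difference, of Sox1, and 1 negative, of Sox4 (-1.22), and the neuronal differentiation list 1 positive, of Stmn2 (2.18), and 1 negative, of Elavl3 (-1.79). Meis2 had 7.28 and 6.34 CPM at 60 h of 2iL, against 15.1 and 11.9 CPM at 48 h (-0.98 ± 0.33), and its difference was 2.94 ± 0.40 (adjusted p = 6.7e-05). Sox1 had 1.15 and 2.64 CPM at 60 h of 2iL and 3.10 and 2.05 CPM at 48 h, levels near the floor, with a difference of 3.01 ± 0.66 (adjusted p = 0.018). Nanog had 6.13 and 8.98 CPM at 60 h of 2iL and 8.60 and 12.3 CPM at 48 h, with a difference of 2.25 ± 0.48 (adjusted p = 0.013). The groups of 2iL overlapped for Sox1 and Nanog and did not for Meis2. At 96 h of 2iL the group means were 50.5 CPM for Meis2, 123 CPM for Sox1 and 17.8 CPM for Nanog, all above the means of 60 h. Meis2 passed in all 8 reduced fits, and Sox1 and Nanog in 4 each. The difference of Sox1 was 3.63 without replicate 2 of 2iL at 60 h. Sox1 had an adjusted p of 0.0615 without replicate 1 of 2i at 60 h, 0.0795 without replicate 2 of 2i at 48 h, 0.228 without replicate 1 of 2iL at 60 h and 0.347 without replicate 1 of 2iL at 48 h. Nanog had one of 0.1395 without replicate 1 of 2i at 60 h, 0.0506 and 0.117 without replicates 1 and 2 of 2i at 48 h, and 0.178 without replicate 1 of 2iL at 60 h. Sox1 did not pass without the 4 libraries that stand apart either (adjusted p = 0.183). For T the difference did not pass (adjusted p = 0.60), with 0.383 and 0.528 CPM at 60 h of 2iL and 0.344 and 0 CPM at 48 h, levels under the floor. Nor did that of Wnt3 (adjusted p = 0.92) or Sp5 (adjusted p = 0.23). Over the 59 genes that rose in 2i the 2iL change was positive for 33 and negative for 25 (median 0.20), and over the 44 that fell it was positive for 13 and negative for 31 (median -0.16), beside a median of 0.0034 over all genes.

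**Figure D5:**
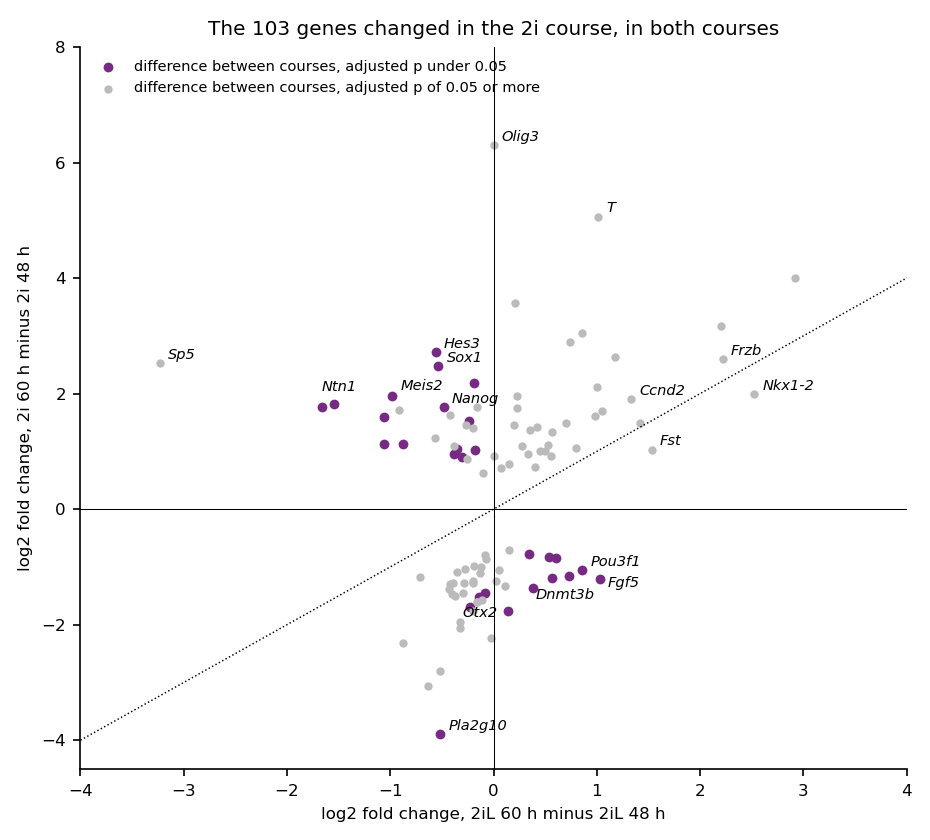
Log2 fold changes of 60 h minus 48 h for the 103 genes changed in the 2i course, in 2i on the y axis and in 2iL on the x axis. Purple points are genes whose change differed between courses at an adjusted p under 0.05, grey points the others, and the dotted line marks equal change. Otx2, Pou3f1, Fgf5 and Dnmt3b lie low and right of the line, Sox1, Hes3, Meis2 and Nanog lie high with 2iL changes below 0, and Frzb, Nkx1-2, Ccnd2 and Fst lie nearer to it.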

How the data were processed

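The deposited files hold whole-number counts per gene, per the file headers, which the authors made from 3' tag sequencing of polyadenylated RNA with bcl2fastq, STAR 2.6.0a and HTSeq on mm10, per the submitters' processing notes. The annotation release and the strand setting are not given in the sources used here, so antisense and near-identical genes cannot be told apart. All 32 libraries were fitted in edgeR 4.0.16 (R 4.3.3) with TMM scaling, a low-count filter (filterByExpr) and 1 coefficient for each of 16 groups, and quasi-likelihood tests were adjusted by Benjamini-Hochberg over 11761 genes, with calls under 0.05. The fit had 16 residual degrees of freedom. DESeq2 1.42.0 and other fits served as alternatives. Rows for reads outside genes were kept out of library totals and are given as shares of uniquely aligned reads. Replicates differed by more than sampling noise (chi-square per degree of freedom 2.95 at 60 h and 5.09 at 48 h). Genes were named by rule: the 15 largest rises and 15 largest falls at a mean log2 CPM of at least 3, called members of 34 gene lists, 16 genes named whatever their p, and, for the difference between courses, the 5 most positive and 5 most negative genes and the list members that passed. Members and lists were chosen with earlier results of these data known. Sequences are from RefSeq. A result that the rule would name is not reported here.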

Additional observations from a re-analysis of the deposited data

Results flagged for a closer look

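The change between 48 and 60 h differed between the 2i and 2iL courses at 68 genes, and the named ones are given here as the log2 change in 2i minus that in 2iL. Equal hours are compared, and stages of the courses were not matched. Positive differences were found for the naive factors Tbx3 (3.33, adjusted p = 0.0092), Klf4 (2.602, adjusted p = 0.0044), Nanog (2.25, adjusted p = 0.013) and Klf5 (1.77, adjusted p = 0.013). In the 2i course Klf4 had 29.7 and 21.5 CPM at 60 h, against 16 and 13.4 CPM at 48 h, and in the 2iL course 40.2 and 28 CPM at 60 h, against 136 and 101 CPM at 48 h. The values moved up in one course and down in the other, although the 2i step of Klf4, Klf5 and Tbx3 alone did not pass. Further positive differences were those of Hes3 of the Notch list (3.28, adjusted p = 0.021), Sox1 of the neural progenitor list (3.01, adjusted p = 0.018), Meis2 of the neural tube list (2.94, adjusted p = 6.7e-05) and Stmn2 of the neuronal differentiation list (2.18, adjusted p = 0.0026). For Hes3, Sox1 and Tbx3 the 2iL means were low, at 1.68, 1.90 and 1.70 CPM at 60 h. At 48 h of 2iL they were 2.68, 2.58 and 6.42 CPM in that order. In these 2iL libraries 3 counts are worth 0.87 to 1.49 CPM, so the differences of Hes3, Sox1 and Tbx3 rest on few 2iL counts. The scaffold gene Ahnak (3.32, adjusted p = 0.0015) and the zinc finger factors Rreb1 (3.23, adjusted p = 0.01) and Zeb1 (2.88, adjusted p = 0.0071) had positive differences too. Leaving out 1 library moved some of these differences by over 1.5 times when read as unlogged folds. The values that follow are in log2. Without replicate 1 of 2iL at 60 h the difference was 2.61 for Tbx3 and 4.001 for Hes3, and without replicate 2 it was 4.31 for Tbx3 and 3.63 for Sox1. Without replicate 1 of 2iL at 48 h it was 2.63 for Ahnak, 2.62 for Rreb1 and 2.16 for Zeb1, and without replicate 1 of 2i at 60 h it was 2.59 for Rreb1.

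Negative differences were found for the formative genes Fgf5 (-2.24), Pou3f1 (-1.91), Otx2 (-1.90), Dnmt3b (-1.75), Utf1 (-1.38) and Sall2 (-1.24, adjusted p = 0.014). Others were the tight junction gene Cldn7 (-2.48, adjusted p = 0.0026), the glucose transporter Slc2a1 (-1.48, adjusted p = 0.013), Btbd17 (-2.26, adjusted p = 0.00017), Minar1 (-2.51, adjusted p = 0.019) and Psors1c2 (-2.92, adjusted p = 0.013). Pla2g10, a secreted phospholipase, differed by -3.38 (adjusted p = 0.03), with 2 counts at 60 h of 2i against 29 counts at 48 h, a ratio of 17.0 in favour of 48 h (95% exact interval 4.30 to 147). Also negative were Sox4 of the neural progenitor list (-1.22, adjusted p = 0.008), Hes6 of the Notch list (-1.22, adjusted p = 0.02) and Elavl3 of the neuronal differentiation list, an RNA-binding protein gene (-1.79, adjusted p = 0.0071). DESeq2 did not call the differences of Klf5, Rreb1, Utf1, Sall2, Slc2a1, Hes6 or Elavl3. It gave no adjusted p for Hes3, Minar1, Psors1c2 or Pla2g10, and called the others named here. Passing in all 8 fits that left out 1 of the libraries compared were 13 of the 68 genes, namely Scrn1, Ahnak, Meis2, Stmn2, Lpar1, Ppp3ca, Dnmt3b, Fth1, Otx2, Pou3f1, Fgf5, Btbd17 and Cldn7. Lpar1, Ppp3ca, Fth1 and Scrn1 were named there after their values were seen. Of the others named here, Klf4 and Elavl3 passed in 6 of the 8 fits, Tbx3, Zeb1, Klf5, Utf1 and Psors1c2 in 5, Rreb1, Sox1, Nanog and Minar1 in 4, Hes3 and Sox4 in 3, and Hes6, Sall2, Slc2a1 and Pla2g10 in 2.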

How the results depend on the processing

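The count of 103 changed genes was 125 with DESeq2's size factors, 138 with no filter on low counts and 119 without the shallow library. It moved further to 437 without the 4 libraries that stand apart, 34 by DESeq2, 458 in a fit of the 4 libraries alone, 423 in a fit of the 2i course alone, and between 24 and 41 when 1 of the 4 libraries was left out. The cause was not tested. The 68 genes that differed between courses became 123 with no filter on low counts, 133 without the 4 libraries that stand apart, 25 by DESeq2 and 22 in a fit of the 8 libraries alone, and between 23 and 393 without 1 library. Neither Hes5 nor Sox2 had passed, and each changed sign in 1 of the 4 fits without a library, with log2 fold changes of -0.26 (without 60 h replicate 1) to 1.65 for Hes5 and of -0.25 to 0.16 (without 48 h replicate 2) for Sox2. The correlation of the deviations of same-numbered libraries was 0.031 (-0.094 to 0.134 over 28 pairs of 2i groups), so replicate numbers showed no pairing by this measure. Counting error also enters these deviations, so the measure cannot decide whether libraries were paired in culture or handling. With the replicate block 101 genes changed, 99 of them among the 103, and 59 differed between courses. Among named genes, Etv5 (adjusted p = 0.0581), Scrn1 (0.0508) and Stmn2 (0.0508) were then lost. DESeq2's size factors moved the median of all genes by 0.063. With 2 libraries a group and 3 counts worth 1.36 to 2.14 CPM, small changes of low genes were not detectable.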
